A study of Mus musculus with 22 samples.

Results

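The genes described here are the neutrophil-attracting CXC chemokines of the mouse lung and the granulocyte colony-stimulating factor (G-CSF) axis. They comprise the chemokines Cxcl1, Cxcl2, Cxcl3, Cxcl5 and Cxcl15, the growth factor Csf3 (which encodes G-CSF) and the receptors Cxcr2 and Csf3r. Members were chosen by name, through the RefSeq accession of the array probes, and make up 8 of 20018 named genes on the array. Each of the 8 had 1 probe, and all 8 were among the 16437 genes expressed above background in at least 1 group.

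CXC chemokines that carry an ELR motif are secreted by lung epithelium, endothelium and macrophages and draw neutrophils out of the blood by way of the receptor Cxcr2. G-CSF acts on the bone marrow through Csf3r, where it drives the production and release of neutrophils. Both arms are known to respond to inhaled particles and bacteria, and neutrophils themselves carry both receptors.

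Lung RNA was measured in female C57BL/6 mice aged 8 weeks, 24 hours after a single intratracheal instillation of 40 µl. Control mice (n = 5) received the vehicle, 0.9% NaCl with 10% cell-free lavage fluid of untreated mice, and the other mice received 18 µg (n = 6), 54 µg (n = 5) or 162 µg (n = 6) of Mitsui7, a multi-walled carbon nanotube, in the same kind of medium. The right lung was used, 1 mouse per array, and whether that lung had been lavaged is not given in the sources used here. RNA of each lung was labelled with Cy5 and hybridised together with a Cy3-labelled universal reference RNA pooled from 11 mouse cell lines, so values below are log2 ratios, lung over reference: 0 means equal signal, and a negative ratio means that the reference was brighter. Because the reference differs from gene to gene, ratios are compared between mice for 1 gene and never between genes.

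Each of the 7 slides carried 3 or 4 arrays. A control mouse was present on 5 slides (1 each) and absent from 2. The share of probes above background ranged from 52.1% to 83.5% over the 22 arrays, and the number of arrays limits the precision of every value. Control arrays kept within 70.5% and 77.7%, so every array below or above that span came from a treated mouse. Lowest were replicates 4 (52.1%) and 6 (53.5%) of the 162 µg group, then 18 µg replicate 6 (56.8%) and 54 µg replicate 3 (58.1%). All of these lay on the 2 slides without a control. The effect of this imbalance on probes near background (Cxcl2, Cxcl3 and Csf3) was not tested. Markers of type II alveolar cells averaged log2 ratios of 4.39 to 5.59 and club cell markers 5.15 to 7.98, far above the reference in every lung. Control replicate 2 stood apart: it had the highest value of the 5 controls for 13 of 17 neutrophil markers. Among them were S100a8 (6.37 against 2.00 to 3.45 in the other controls), Ngp (2.40 against -0.00 to 0.33) and Retnlg (6.31 against 2.81 to 3.72). At 162 µg, replicate 2 was the highest of its group for 13 of the 16 markers it had a value for. The values of Cxcr2 and of those neutrophil markers described with a fold change at 162 µg are also given without control replicate 2. That mouse was singled out after the data were seen, by these same genes. Leaving out the highest control tends to raise an estimate, so passing the test without it is not a separate result. In RNA of a whole lung, fewer cells of a type and less RNA per cell cannot be told apart.

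Promoter sequences are shown first for the chemokines that lie side by side on chromosome 5, because 3 of them share a run of letters directly before their start site. In the RefSeq annotation of build GRCm38.p6 the genes follow each other as Cxcl5, Ppbp, Pf4, Cxcl3, Cxcl15, Cxcl1 and Cxcl2. The 100 bases before the annotated start, on the + strand of that build, are chr5:90891145-90891244 for Cxcl1, chr5:90903799-90903898 for Cxcl2, chr5:90786001-90786100 for Cxcl3 and chr5:90794434-90794533 for Cxcl15. Capitals mark GGGAATTTCCC, the longest run (11 letters) that the windows of Cxcl1, Cxcl2 and Cxcl3 share, which holds a form of the motif bound by the transcription factor NF-κB.
Cxcl1: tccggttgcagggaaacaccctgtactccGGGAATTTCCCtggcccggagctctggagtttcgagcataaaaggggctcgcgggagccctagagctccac
Cxcl2: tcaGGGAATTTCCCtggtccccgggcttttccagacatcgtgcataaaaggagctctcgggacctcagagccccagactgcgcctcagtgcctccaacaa
Cxcl3: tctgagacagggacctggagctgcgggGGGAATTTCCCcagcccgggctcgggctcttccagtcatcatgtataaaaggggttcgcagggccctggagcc
Cxcl15: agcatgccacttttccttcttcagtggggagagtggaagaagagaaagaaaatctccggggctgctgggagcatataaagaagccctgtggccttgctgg
The run began 71 bases before the start in Cxcl1, 97 in Cxcl2 and 73 in Cxcl3. Promoter sequences of 6 of the 8 genes were available here, each from 250 bases before to 50 bases after the start; Cxcl5 and Csf3 had none. Searched on both strands, GGGAATTTCCC was found in 3 of the 6, the genes it was taken from, and in 14 of 32851 promoters of the same length (0.0426%). A second motif searched, TTNNGNAA, a loose form of the letters bound by C/EBP factors, was found in 1 of the 6 (Cxcl2, at 236 bases before the start) and in 40.7% of all promoters. The 2 motifs overlapped in none of these sequences. These matches describe letters, not binding, and the absence of a match in Cxcl15, Cxcr2 or Csf3r says only that these letters were not in the window.

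The main question of the design was how each gene changed against vehicle controls at each dose. Cxcl1 was higher than in controls at all 3 doses, and Cxcl2, Cxcl5 and Csf3 were higher at 162 µg, whereas Cxcl3, Cxcl15 and both receptors did not pass the test at any dose. Cxcl2 and Csf3 were not well above background in any control, and Cxcl3 was in 1 of 5. These 3 genes counted as expressed only through the 54 µg and 162 µg groups. The bounds of Cxcl2 and Csf3, given with each gene, lie under 1.5-fold. A gene is called here when limma gave an adjusted p (Benjamini-Hochberg over all 55681 probes) no higher than 0.05 and its level differed 1.5-fold or more. At 18 µg 1 of the 8 genes was called (2.06% of all expressed genes were called, 0.633% higher and 1.43% lower), at 54 µg 1 of 8 (0.353% of all expressed genes, 0.219% higher and 0.134% lower) and at 162 µg 4 of 8 (6.84% of all expressed genes, 3.32% higher and 3.52% lower). No member was called lower than in controls. The median log2 fold change of the 8 genes at 18, 54 and 162 µg was 0.35, 0.42 and 0.72, beside -0.02, -0.01 and -0.01 over all expressed genes. The 3 comparisons share the same 5 control mice and are not independent of each other.

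**Figure D1:**
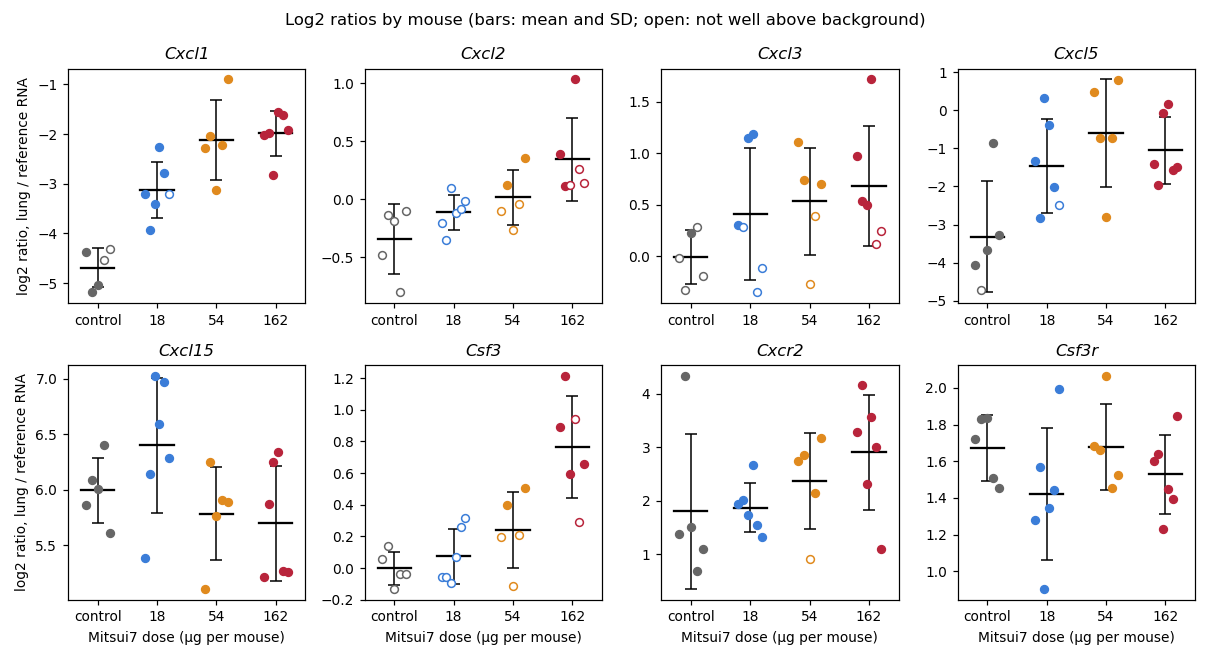
Log2 ratio of lung to reference RNA (vertical axis, a separate scale for each gene) in each mouse by dose of Mitsui7 in µg (horizontal axis). Points are mice, black bars the group mean and SD, and open points were not well above background by the scanner software's flag. All treated mice lie above all controls for Cxcl1 at each dose and for Cxcl2 and Csf3 at 162 µg. Such separation held for 1.34%, 1.39% and 3.69% of expressed genes at 18, 54 and 162 µg. One control mouse stands high for Cxcl5 and another for Cxcr2.

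Cxcl1 (KC), the chemokine usually measured as the mouse counterpart of interleukin 8, separated treated from control mice at each dose. Its log2 ratio in the 5 controls was -4.37, -5.19, -5.03, -4.53 and -4.32. At 18 µg the lowest, median and highest mouse were at -3.93, -3.21 and -2.26, at 54 µg the mice were at -2.28, -2.03, -3.13, -2.22 and -0.90, and at 162 µg the lowest, median and highest were at -2.82, -1.95 and -1.55. No treated mouse overlapped with the controls at any dose: 6 of 6, 5 of 5 and 6 of 6 mice were above all controls, which held for 1.34%, 1.39% and 3.69% of expressed genes at the 3 doses. Cxcl1 was well above background in 3 of 5 controls, 5 of 6 mice at 18 µg and in all mice at 54 µg and 162 µg.

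Against controls Cxcl1 rose 2.68-fold at 18 µg, a log2 fold change of 1.42 ± 0.31 (SE, adjusted p = 0.0352 in limma). The rise was 4.87-fold at 54 µg (log2 2.29 ± 0.33 SE, adjusted p = 0.0133) and 6.02-fold at 162 µg (log2 2.59 ± 0.31 SE, adjusted p = 0.000241). By size, these were the changes ranked 30, 18 and 13 among the increases of all expressed genes. On each slide that held both, the treated mouse was above the control mouse, by 1.12 to 1.53 on the log2 scale at 18 µg (4 slides), 2.09 to 3.00 at 54 µg (3 slides) and 1.71 to 3.17 at 162 µg (4 slides). The call at 162 µg held with each of the 22 mice left out in turn (1 at a time). At 18 µg the call was lost without control replicate 1, 2, 3 or 5, without 18 µg replicate 1, 3, 4 or 5, or without 54 µg replicate 2, with estimates from 1.26 to 1.58 over all such fits. At 54 µg it was lost without control replicate 3 or 5 or 54 µg replicate 2 or 4, with estimates from 2.01 to 2.58. Other processing of the arrays ended the call of Cxcl1 at 18 µg with normexp background correction, median centring, no normalization or the deposited log2 values, at 54 µg with the last 3 of these, and at 162 µg without normalization.

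Cxcl5 (LIX), a chemokine made mainly by lung epithelium, had a change as large as that of Cxcl1 but a wider spread. Its log2 ratios in controls were -4.06, -4.71, -3.67, -0.87 and -3.27. They ran from -2.83 over a median of -1.67 to 0.33 at 18 µg, were 0.48, -0.73, -2.80, -0.74 and 0.80 at 54 µg, and ran from -1.95 over -1.45 to 0.17 at 162 µg. Control replicate 4 was the highest control, and because of it only 2 of 6, 4 of 5 and 2 of 6 treated mice were above all controls, whereas every treated mouse was above the other 4 controls. That mouse was set aside by the values of Cxcl5 itself, which helps such separation. The share of expressed genes that separate without their highest control was not computed.

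The log2 fold change of Cxcl5 was 1.79 (SE 0.59, adjusted p = 0.138 in limma) at 18 µg, 2.88 (SE 0.63, adjusted p = 0.0802) at 54 µg and 2.29 (SE 0.59, adjusted p = 0.0271) at 162 µg. Only the last passed the test, although the estimate at 54 µg was the highest of the 3. The difference between 162 µg and 54 µg was -0.58 (95% interval -1.82 to 0.66, adjusted p = 0.910). All 11 within-slide differences were positive, from 0.80 to 4.53, including that of the mouse at 162 µg on the slide of control replicate 4 (0.80). These differences reuse the same 5 control mice and are not independent of each other. The share of expressed genes with all of them positive was not computed. The call at 162 µg was lost without control replicate 1, 2, 3 or 5 or 162 µg replicate 1, with estimates from 2.04 to 2.58 over the fits with 1 mouse left out. At 54 µg the estimate passed the test without 54 µg replicate 3, the lowest mouse of that group (3.56, adjusted p = 0.000343), or without 162 µg replicate 4 (3.05, adjusted p = 0.0480), and at 18 µg without 54 µg replicate 3 (1.53, adjusted p = 0.0292). Leaving out the lowest treated mouse raises the estimate of its group, so passing at 54 µg without it is not a separate result. The array of that mouse had 58.1% of probes above background and lay on a slide without a control. The call of Cxcl5 at 162 µg also ended with median centring, no normalization, the deposited log2 values or no slide term.

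Cxcl2 (MIP-2), a chemokine released early by macrophages, was measured near the limit of the array. Its Cy5 signal was not well above background in any control or any mouse at 18 µg, but was so for 3 of 6 mice given 162 µg and 2 of 5 given 54 µg. The log2 ratios of the controls were -0.48, -0.14, -0.19, -0.80 and -0.10. They ran from -0.35 over a median of -0.10 to 0.09 at 18 µg, were -0.10, 0.13, -0.27, -0.04 and 0.36 at 54 µg, and ran from 0.11 over 0.20 to 1.04 at 162 µg. There 6 of 6 mice were above all controls, which held for 3.69% of expressed genes. At 18 µg 3 of 6 mice were, and at 54 µg 4 of 5.

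Cxcl2 changed against controls by 0.62 on the log2 scale at 162 µg (SE 0.18, adjusted p = 0.0467 in limma), and the values at 18 µg and 54 µg were 0.18 (adjusted p = 0.700; -0.04 without normalization) and 0.27 (adjusted p = 0.781). Since no control was well above background, the change at 162 µg is also given as a bound, at least 1.38-fold on the mean signals. This bound sets the mean Cy5 signal at 162 µg (loess within arrays, then average intensities put on a common distribution by quantiles) against a floor for each control array, either the lowest signal still well above background or the signal of the probe itself if that was brighter. Without a dye swap, a bias of the dyes can enter it. The bound carries no error, and mice at 162 µg that were not well above background also count in the mean. It is therefore not a lowest possible change, and other settings gave estimates down to 0.37 on the log2 scale. The call at 162 µg was near the threshold: of the 22 fits with 1 mouse left out it held in 4, those without 18 µg replicate 2 or 3, 54 µg replicate 5 or 162 µg replicate 6, and single mice moved the estimate between 0.48 (control replicate 4 left out) and 0.70 (162 µg replicate 2 left out). Of 19 other settings, 9 kept the call of Cxcl2, and the estimates ranged from 0.37 to 0.79.

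Cxcl3 (DCIP-1), the third chemokine with the shared promoter letters, did not pass the test at any dose. Controls had log2 ratios of -0.02, -0.32, 0.22, 0.29 and -0.19. The mice ran from -0.35 over 0.30 to 1.19 at 18 µg, were at 1.11, 0.74, -0.27, 0.39 and 0.70 at 54 µg, and ran from 0.12 over 0.52 to 1.72 at 162 µg. The groups overlapped, with 4 of 6, 4 of 5 and 4 of 6 mice above all controls. The log2 fold change was 0.42 (adjusted p = 0.552 in limma) at 18 µg, 0.57 (adjusted p = 0.674) at 54 µg and 0.70 (95% interval 0.08 to 1.33, adjusted p = 0.204) at 162 µg. The probe was well above background in 1 of 5 controls, 3 of 6 mice at 18 µg, 3 of 5 at 54 µg and 4 of 6 at 162 µg. Without 54 µg replicate 3, the lowest mouse of its group, the estimate of Cxcl3 at 54 µg was 0.91 and passed the test (adjusted p = 0.0423). As for Cxcl5, leaving out the lowest mouse raises the estimate, so this is not a separate result.

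Cxcl15 (lungkine) is made by the epithelium of the airways and alveoli and stood far above the reference in every lung. Its log2 ratios were 5.86, 6.09, 6.00, 6.41 and 5.61 in controls, 5.39 to 7.03 with a median of 6.44 at 18 µg, 5.10, 6.25, 5.76, 5.91 and 5.89 at 54 µg, and 5.22 to 6.34 with a median of 5.57 at 162 µg. Against controls the log2 fold change was 0.42 (SE 0.21, adjusted p = 0.356 in limma), -0.17 (SE 0.22, adjusted p = 0.923) and -0.43 (SE 0.21, adjusted p = 0.294) at the 3 doses, none of which passed the test. The groups overlapped at each dose, and the estimate at 18 µg turned to -0.04 when arrays were centred on their median and to -0.21 without normalization, while that at 54 µg turned to 0.11 with the Cy5 channel alone. Within slides the mouse at 162 µg was below the control of its slide on all 4 slides, by -0.87 to -0.14. Of 4 club cell markers, genes of the airway epithelium, none had an estimate above 0 at any dose (median -0.54, -0.59 and -0.44). Of 9 type II alveolar markers, 7, 2 and 5 did (median 0.24, -0.03 and 0.17). The part of these cells in the values of Cxcl15 was not tested.

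Csf3, the growth factor that raises neutrophil output of the marrow, had like Cxcl1 a call at 162 µg that held with each of the 22 mice left out. The log2 ratios of controls lay close together at 0.05, 0.14, -0.13, -0.04 and -0.04. Mice at 18 µg ran from -0.09 over 0.01 to 0.31, those at 54 µg were at 0.20, 0.40, -0.12, 0.21 and 0.51, and those at 162 µg ran from 0.29 over 0.77 to 1.21. Above all controls were 2 of 6, 4 of 5 and 6 of 6 mice, and at 162 µg such full separation held for 3.69% of expressed genes.

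The log2 fold change of Csf3 was 0.09 (adjusted p = 0.840 in limma) at 18 µg, 0.21 (adjusted p = 0.803) at 54 µg and 0.74 (SE 0.14, adjusted p = 0.00552) at 162 µg, the last with a range from 0.62 to 0.86 when single mice were left out. The within-slide differences at 162 µg were 0.33 to 1.35 on 4 slides. As for Cxcl2, the probe was well above background in no control and in no mouse at 18 µg, in 2 of 5 at 54 µg and in 4 of 6 at 162 µg, so that the change is given as at least 1.44-fold on the same bound. That bound has the limits described for Cxcl2, and both bounds lie under the 1.5-fold threshold. The call of Csf3 at 162 µg ended with normexp correction (0.49), no normalization, the Cy5 channel alone, a filter on the scanner's flags or a 2-fold threshold.

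**Figure D2:**
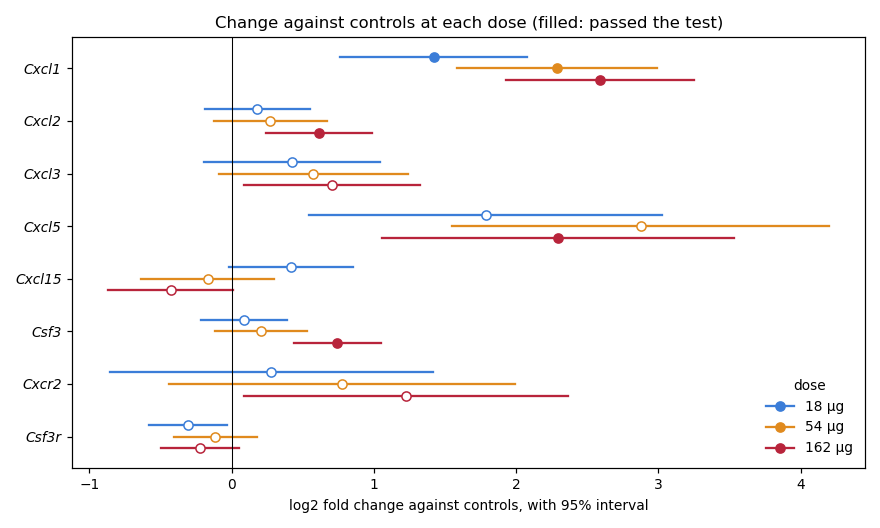
Log2 fold change against controls (horizontal axis) of the 8 genes at 18, 54 and 162 µg, from the fit of dose and slide over 22 mice. Bars are 95% intervals and filled points passed the test. Cxcl1 is filled at each dose, and Cxcl2, Cxcl5 and Csf3 at 162 µg; the intervals of Cxcl5 and Cxcr2 are the widest.

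Cxcr2 is the receptor through which neutrophils read ELR chemokines, and the cells that gave its messenger RNA in these lungs were not identified. Its log2 ratio in controls was 1.38, 4.34, 1.52, 0.68 and 1.09. The mice at 18 µg ran from 1.33 over 1.84 to 2.66, those at 54 µg were at 2.74, 2.85, 0.91, 2.14 and 3.18, and those at 162 µg ran from 1.10 over 3.15 to 4.17. Control replicate 2 was above every treated mouse, so no treated mouse was above all controls. Above the other 4 controls were 5 of 6 mice at 18 µg, 4 of 5 at 54 µg and 5 of 6 at 162 µg.

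The log2 fold change of Cxcr2 was 0.28 (SE 0.54, adjusted p = 0.869 in limma) at 18 µg, 0.78 (SE 0.58, adjusted p = 0.803) at 54 µg and 1.23 (95% interval 0.09 to 2.37, adjusted p = 0.235) at 162 µg, and none passed the test. Without control replicate 2 the estimates were 0.93, 1.25 and 1.88, and that at 162 µg passed the test (adjusted p = 0.0304 in limma). That mouse was singled out as the highest control for Cxcr2, so the rise follows from the choice and is no separate evidence. Without both control replicate 2 and 162 µg replicate 2, also chosen after the data were seen, the estimates were 0.83, 1.23 and 1.66. That at 162 µg did not pass (adjusted p = 0.103 in limma). Within slides the differences from the control were positive on 3 of 4 slides at 18 µg, 3 of 3 at 54 µg and 3 of 4 at 162 µg, and the 2 negative ones (-2.32 and -1.04) were both on the slide of control replicate 2.

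The neutrophil markers are given beside Cxcr2. The mean log2 ratio of the 16 neutrophil markers with a value in every mouse was 3.00 in control replicate 2 and 1.17 to 1.54 in the other controls. It was 1.27 to 1.75 (median 1.52) at 18 µg, 1.60 to 2.12 (median 1.76) at 54 µg and 1.47 to 3.56 (median 2.15) at 162 µg. Control replicate 2 and 162 µg replicate 2 were the highest of their groups for both Cxcr2 and the markers, whereas at 18 µg the highest mouse differed between them (replicate 4 for Cxcr2 and replicate 3 for the markers). Of 17 neutrophil markers, 1 was called at 18 µg (Lcn2, higher), where 2.06% of all expressed genes were, and 2 at 162 µg (Lcn2 and Il1r2, both higher), where 6.84% were. At 54 µg none was called in limma. There 2 had an unadjusted p under 0.05, Lcn2 with an estimate of 1.11 and Fpr1 with -0.51, as had 13.8% of all expressed genes.

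The count at 162 µg moved with control replicate 2, which was singled out by these same markers. Without it 5 markers were called, S100a9, Retnlg, Lcn2, Clec4d and Il1r2, all higher. Without both that mouse and 162 µg replicate 2, a choice made after seeing the data, again 2 were, Lcn2 and Il1r2. The share of all expressed genes called in these fits with fewer mice was not computed. S100a9 had a log2 fold change of 0.64 (adjusted p = 0.407 in limma) over all mice, 1.17 (adjusted p = 0.0210) without control replicate 2 and 0.89 (adjusted p = 0.0775) without both. The granule protein Ngp had 0.68 (adjusted p = 0.556), 1.25 (adjusted p = 0.129) and 0.51 (adjusted p = 0.218). Ly6g, the usual surface marker of mouse neutrophils, had no matched probe. The part of neutrophil number in the values of Cxcr2 was not tested.

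**Figure D3:**
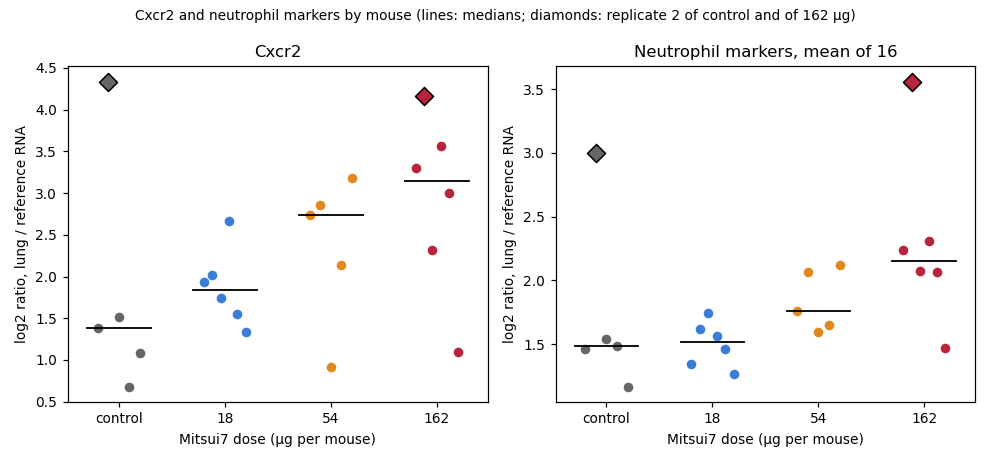
Log2 ratio of lung to reference RNA of Cxcr2 (left) and mean log2 ratio of 16 neutrophil markers (right) in each mouse by dose of Mitsui7 in µg. Points are mice, lines are group medians, and diamonds are replicate 2 of the controls and of the 162 µg group. Control replicate 2 lies above the other controls in both panels, at 4.34 for Cxcr2 and 3.00 for the markers.

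Lcn2 and Il1r2, the markers that were called, are not expressed by neutrophils alone. Lcn2 encodes lipocalin 2, a siderophore-binding protein that epithelium also makes in inflammation, and rose by 1.14 (adjusted p = 0.0485) at 18 µg and 1.65 (adjusted p = 0.00195) at 162 µg on the log2 scale. Without control replicate 2, the value of Lcn2 was 1.21 (adjusted p = 0.0561) at 18 µg and 1.72 (adjusted p = 0.00451) at 162 µg, and at 18 µg its call held in 6 of the 22 fits with 1 mouse left out, those without 18 µg replicate 2 or 6, 54 µg replicate 3 or 5 or 162 µg replicate 5 or 6. Il1r2, the decoy receptor for interleukin 1, rose by 2.36 (adjusted p = 0.00751) at 162 µg, without control replicate 2 by 2.93 and without both by 2.51.

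Csf3r, the receptor for G-CSF, did not follow Cxcr2. Its log2 ratios were 1.72, 1.83, 1.84, 1.51 and 1.45 in controls, 0.90 to 1.99 with a median of 1.39 at 18 µg, 1.68, 1.66, 2.07, 1.45 and 1.53 at 54 µg, and 1.23 to 1.85 with a median of 1.53 at 162 µg. Control replicate 2, at 1.83, was not set apart from the other controls, unlike for Cxcr2 and most neutrophil markers. The log2 fold changes were -0.31 (95% interval -0.58 to -0.03, adjusted p = 0.261 in limma), -0.11 (95% interval -0.41 to 0.18, adjusted p = 0.910) and -0.22 (95% interval -0.49 to 0.05, adjusted p = 0.420) at the 3 doses, and at 54 µg the estimate turned to 0.04 without normalization. The Cy5 signal of this probe was 11264 to 81392 units at 162 µg and its reference signal 22050.5 to 43827, both very bright, and whether the probe measures Csf3r alone was not tested.

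Whether the doses differed from each other was tested directly in the same fit. From 18 µg to 162 µg, 3 of the 8 genes were called, Cxcl1 and Csf3 higher and Cxcl15 lower (4.98% of all expressed genes were called, 3.33% higher and 1.65% lower). Cxcl1 was higher by 1.17 on the log2 scale (SE 0.29, adjusted p = 0.0300 in limma), and Cxcl15 differed by -0.85 (SE 0.19, adjusted p = 0.0188). The fitted difference of Csf3 was 0.66 (SE 0.14, adjusted p = 0.00980 in limma). Since no mouse at 18 µg was well above background, it is also given as a bound of 1.40-fold, with the limits described for Cxcl2. With the Cy5 channel alone the fitted difference was 0.13 on the log2 scale, below that bound. The call of Cxcl1 was lost without 18 µg replicate 1, 2, 3, 5 or 6 or 162 µg replicate 1, 2, 4 or 5, with estimates from 1.00 to 1.41. That of Csf3 was lost without 162 µg replicate 4 (range 0.58 to 0.76), and that of Cxcl15 without 18 µg replicate 5 or 162 µg replicate 1 or 5 (range -1.002 to -0.683). With median centring or without normalization none of the 3 was called, and that of Csf3 held in 11 of 19 other settings (0.13 to 0.69), those of Cxcl1 and Cxcl15 in 15 and 14.

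From 18 µg to 54 µg none of the 8 genes was called in limma (2 at an unadjusted p under 0.05, Cxcl1 and Cxcl15, beside 14.9% of all expressed genes), and of all expressed genes 0.0304% were called (0.0183% higher and 0.0122% lower). From 54 µg to 162 µg none was called either (1 at an unadjusted p under 0.05, Csf3), with 0% of all expressed genes called (12.2% at an unadjusted p under 0.05). Cxcl1 differed by 0.87 (95% interval 0.21 to 1.52, adjusted p = 0.382) between 18 µg and 54 µg and by 0.30 (95% interval -0.35 to 0.96, adjusted p = 0.914) between 54 µg and 162 µg. Csf3 differed by 0.54 (95% interval 0.23 to 0.84, adjusted p = 0.281) between 54 µg and 162 µg.

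**Figure D4:**
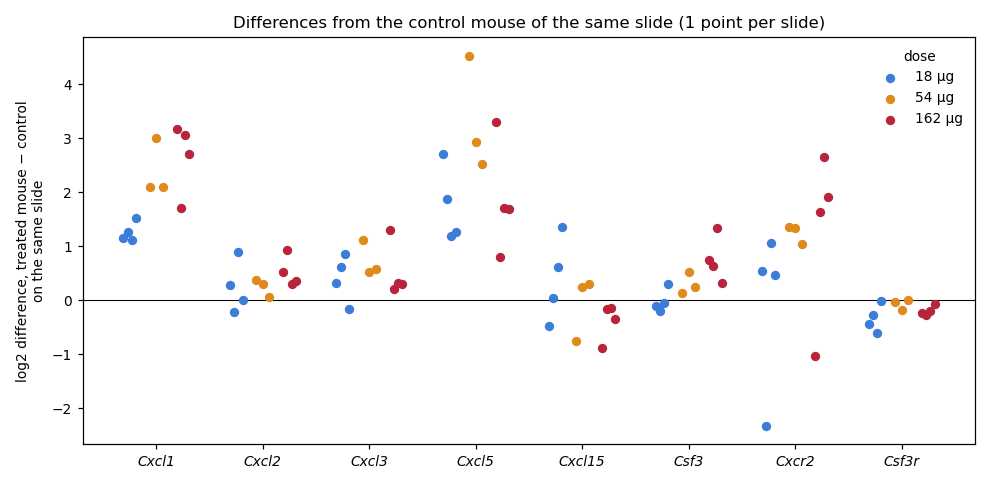
Difference of log2 ratio between a treated mouse and the control mouse on the same slide (vertical axis), 1 point per slide, for the 8 genes at 18, 54 and 162 µg. Slides without a control give no point, and points of the same gene and slide share 1 control mouse. The share of expressed genes with every point on the same side of 0 was not computed. All points of Cxcl1 and Cxcl5 are above 0, and the 2 low points of Cxcr2 (-2.32 and -1.04) share the slide of control replicate 2.

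Other genes of the axis were taken from 4 lists with 44 genes in all, of which 42 were expressed. At 18 µg 1 of 42 was called, Mif (higher), beside 2.06% of all expressed genes. At 54 µg none was in limma (11 at an unadjusted p under 0.05, beside 13.8% of all expressed genes). At 162 µg 5 of 42 were, Cebpd, Socs3, Selp and Icam1 higher and Itgal lower, beside 6.84% of all expressed genes. The median log2 fold change of the lists was 0.16, 0.18 and 0.15 at the 3 doses, beside the values near 0 over all expressed genes given above. Between 18 µg and 162 µg, Cebpd was called higher and Cxcr4, Vcam1 and Itgal lower, beside 4.98% of all expressed genes.

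Among 7 further ligands and receptors of Cxcr2 and Cxcr4, only Mif was called against controls. Mif encodes a cytokine that can bind both receptors, and rose by 0.59 on the log2 scale at 18 µg (SE 0.13, adjusted p = 0.0348 in limma). There 6 of 6 mice were above all controls, as for 1.34% of expressed genes, but without normalization the estimate was -0.05. The call of Mif was lost without control replicate 1, 4 or 5, 18 µg replicate 1, 3, 4 or 5 or 54 µg replicate 1 or 2, with estimates from 0.47 to 0.67. Ppbp, a platelet chemokine and Cxcr2 ligand that lies in the same gene cluster, had log2 fold changes of -0.99 (adjusted p = 0.279) at 18 µg and -0.92 (adjusted p = 0.274) at 162 µg. Cxcr1, the other neutrophil chemokine receptor, had -0.25 (adjusted p = 0.694) at 162 µg. Cxcr4, which holds neutrophils in the marrow, was lower at 162 µg than at 18 µg by a difference of -0.70 (adjusted p = 0.0312).

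Of the inducers of ELR chemokines and G-CSF, 13 of 15 were expressed and 1 was called. Cebpd, a transcription factor of the acute phase response, rose by 1.91 on the log2 scale at 162 µg (SE 0.40, adjusted p = 0.00957) and by 1.71 between 18 µg and 162 µg (adjusted p = 0.0152). Without control replicate 2, whose log2 ratio of 2.81 was above the other controls (-0.46 to 0.60), the change of Cebpd at 162 µg was 2.55. The upstream cytokines did not pass the test at 162 µg. Il1b had a log2 fold change of 1.38 (SE 0.65, adjusted p = 0.274), and 2.01 (adjusted p = 0.0787) without control replicate 2, which at 4.52 was above the other controls (1.21 to 2.17). Tnf had a log2 fold change of 0.39 (SE 0.13, adjusted p = 0.0991), and Il17a was not expressed above background.

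Of 12 myeloid growth factor and G-CSF receptor signalling genes, all expressed, 1 was called. Socs3, the feedback inhibitor that Stat3 induces below Csf3r and other cytokine receptors, rose by 1.28 on the log2 scale at 162 µg (SE 0.22, adjusted p = 0.00216 in limma). There 6 of 6 mice were above all controls, as for 3.69% of expressed genes. The values of Socs3 were 0.73 (adjusted p = 0.0955) at 18 µg and 1.01 (adjusted p = 0.0998) at 54 µg. Csf1, the macrophage growth factor, had 0.53 (adjusted p = 0.0362) at 18 µg and 0.48 (adjusted p = 0.0211) at 162 µg, which is below 1.5-fold, and Csf2 had 0.26 (adjusted p = 0.603) at 162 µg.

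Of 10 genes of neutrophil adhesion, all expressed, 3 were called at 162 µg. The endothelial adhesion molecules Selp and Icam1 rose by 0.81 (adjusted p = 0.0258) and 0.91 (adjusted p = 0.0322 in limma) on the log2 scale. Itgal, a chain of the leukocyte integrin that binds Icam1, fell by 0.78 (adjusted p = 0.00547), with 6 of 6 mice below all controls. The share of expressed genes with every mouse below all controls was not computed. Itgal is also carried by lymphocytes. Without control replicate 2 the change of Itgal was -0.58 (adjusted p = 0.0117), below 1.5-fold and so no longer called. Vcam1, an endothelial ligand of other leukocyte integrins, differed by -0.95 (adjusted p = 0.00964) between 18 µg and 162 µg. The calls of Selp and Icam1 did not hold in each fit with 1 mouse left out: Selp was lost without control replicate 3, 4 or 5 or 162 µg replicate 1, 2 or 5, and Icam1 without control replicate 3, 4 or 5 or 162 µg replicate 3.

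Markers of other cells of the lung were taken from 5 lists. Chil3 (alveolar macrophages, also on the monocyte list) was called higher at 18 µg, beside 2.06% of all expressed genes. At 162 µg, where 6.84% were called, Marco (macrophage scavenger receptor), Napsa (type II alveolar protease) and Ear6 (eosinophil granule gene) were higher. The club cell enzyme Cyp2f2 was lower there. At 18 µg, 4 of 6 alveolar macrophage (median 0.56) and 1 of 4 monocyte estimates (median -0.32) were above 0. At 162 µg, 6 of 6 alveolar macrophage (median 0.86), 5 of 9 type II (median 0.17), 2 of 4 eosinophil (median 0.008) and 0 of 4 club cell estimates (median -0.44) were. The mean of 6 alveolar macrophage markers was 3.12 to 3.73 in controls and 3.36 to 4.92 at 162 µg, and that of 3 club cell markers 6.51 to 7.97 in controls and 6.22 to 7.57 at 162 µg. The mean of 4 monocyte markers was 3.89 in control replicate 2, 2.13 to 2.32 in the other controls and 1.58 to 3.01 at 162 µg. That of 4 eosinophil markers was 0.11 to 0.49 in controls and 0.21 to 0.89 at 162 µg. Their part in the values of the chemokines was not tested.

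For each member called against controls, the genes with the most similar course over the mice were found from the root mean square difference of log2 ratios centred on the control mean. Closest to Cxcl1 over 22 mice were Adamts4, a matrix protease (0.582), Il6, an acute phase cytokine (0.583), and Ccl2, a monocyte chemokine (0.589), where Cxcl1 itself differed from its control mean by 2.10. The mean log2 ratio of Il6 went from -2.40 in controls to -0.50, 0.14 and 0.84 at the 3 doses, and that of Ccl2 from -4.08 to -1.95, -1.20 and -1.73. Closest to Cxcl5 were the eosinophil chemokine Ccl11 (0.965), Ccl2 (0.986) and the monocyte chemokine Ccl7 (1.02), where Cxcl5 itself differed by 2.30. For the dim genes Cxcl2 and Csf3, whose own differences were 0.482 and 0.467, the closest were Tnfrsf22 (0.223), Tsr1 (0.237) and Fyb2 (0.250), and Hmga1 (0.214), Il18rap (0.225) and Inf2 (0.226). Likeness of course says nothing of shared function or control.

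**Figure D5:**
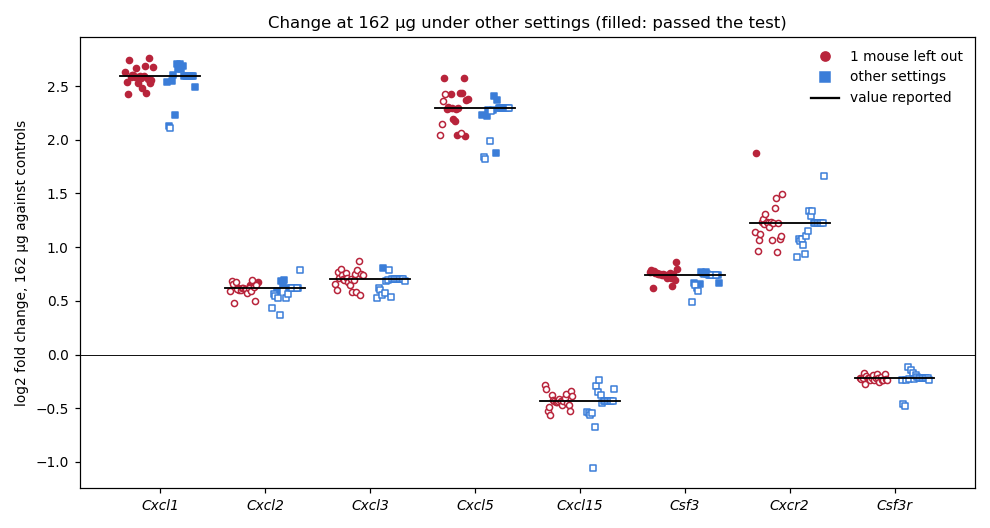
Log2 fold change at 162 µg against controls (vertical axis) of the 8 genes, with 1 mouse left out in each of 22 fits (circles) and under 19 other settings (squares). Lines are the values reported above and filled symbols passed the test. Cxcl1 and Csf3 are filled in all circles, Cxcr2 in 1 circle (without control replicate 2), and no gene changes its sign.

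The shift of all expressed genes with median centring or without normalization was largest at 18 µg. Median centring in place of loess moved the median log2 fold change of all expressed genes to -0.26 at 18 µg and -0.18 at 162 µg, and leaving out normalization moved it to -0.42, 0.13 and -0.21 at the 3 doses. Relative to these shifts, the change of Cxcl1 was 1.26, 2.15 and 2.31 with median centring and 1.26, 2.15 and 2.31 without normalization, and that of Csf3 at 162 µg was 0.84 and 0.85. Cxcl15 at 18 µg, negative under both scalings, was at 0.21 relative to each shift. Median centring takes only 1 constant per array from the unnormalized ratios. The values relative to the 2 shifts are therefore nearly equal by construction and do not count as 2 results. No member was called without normalization, and with median centring Cxcl1 and Csf3 were called, both at 162 µg.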

How the data were processed

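Agilent arrays with a Cy5 and a Cy3 channel, 1 for each of 22 lungs, were analysed. The deposited intensity values are spot medians for Cy5 and Cy3 that, per the file headers, Feature Extraction 10.7.3.1 read from the scans together with its background, saturation and outlier flags, which the files hold as a score of 0 or 1. The authors also deposited a table of log2 values, whose normalization is not given in the sources used here. It served as an alternative, with column medians from -0.05 to -0.02 and a correlation with the ratios used here of 0.834 to 0.998 over probes, so its direction is the same.

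Log2 ratios of Cy5 to Cy3 were computed without background subtraction and normalized by loess (span 0.3) within arrays. Outlier spots were left out and spots of a probe summarised by their median. Probes were named through RefSeq accessions (26413 of 55681, build GRCm38.p6). A gene counted as expressed where its Cy5 signal exceeded the 5% trimmed mean of 308 negative control spots by 3 trimmed standard deviations on 80% or more of a group's arrays. Dose and slide were fitted with limma 3.58.1 in R 4.3.3 over all mice, with 12 residual degrees of freedom, where the study's methods name an analysis of variance with permuted residuals. The p-values were adjusted over all 55681 probes. Each numbered sample was taken as 1 mouse, since no source used here mentions pooling. Dyes were not swapped.

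The members and gene lists were chosen with earlier results of these data known. Named are the members, the list genes called at any dose, defining markers, and for each member called against controls the 3 genes of nearest course. The fit was tested on simulated data with 200 changed probes. Their change had the same size at all doses, was larger than those of Cxcl2 and Csf3, and met no background floor. The simulation therefore says nothing of small changes near background. Alternatives covered background correction, normalization, filters, thresholds, the model and each mouse left out.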

Additional observations from a re-analysis of the deposited data

Results flagged for a closer look

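Of 56 groups of values examined, 6 held a mouse far from the others of its group, and chance sets apart about 1 in 20 groups. Of the 32 groups of member values, 3 were among them. The log2 ratio of Cxcl1 in 162 µg replicate 3 was the lowest of its group at -2.82, where the others lay between -2.02 and -1.55. The log2 ratio of Cxcl2 in 162 µg replicate 4 was the highest at 1.04, where the others lay between 0.11 and 0.39, and without this mouse the change of Cxcl2 was 0.50. The log2 ratio of Cxcr2 in control replicate 2 was the highest at 4.34, where the other controls lay between 0.68 and 1.52.

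Of the 24 groups of marker means, 3 held such a mouse. Control replicate 2 had the highest mean log2 ratio of neutrophil markers, 3.00 against 1.17 to 1.54 in the other controls, and of monocyte markers, 3.89 against 2.13 to 2.32. At 162 µg, replicate 2 had the highest mean of eosinophil markers, 0.89 against 0.21 to 0.46.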

How the results depend on the processing

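Member calls against controls numbered 1, 1 and 4 at 18, 54 and 162 µg and 3 between doses. With normexp correction they were 0 at 18 µg and 2 at 162 µg; with median centring 0, 0 and 2, and 0 between doses; without normalization 0 throughout; and with the deposited log2 values 0, 0 and 2. With Cy5 alone or array weights 2 were called at 54 µg, and with only the 2 groups compared 2 at 18 µg and 4 at 54 µg. Scanner flags or a 2-fold threshold left 2 at 162 µg, the latter 1 between doses. Without control replicate 2 and 162 µg replicate 2, chosen after seeing the data, 0 were called at 18 µg and 2 at 162 µg. With 1 mouse left out, counts ranged from 0 to 2, 0 to 3, 2 to 4 and 1 to 3. For settings other than the main fit, the share of all expressed genes called was not computed. Counts of calls under them, of members or of listed genes, therefore stand without that share.

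Pathway calls (1, 0 and 5) were 0 at 18 µg with normexp, median centring, no normalization, quantile normalization, the deposited table, only the 2 groups, array weights or a 2-fold threshold, and 2 with slide as a random block or no fold threshold. At 54 µg they were 1 with no slide term or a random block, 3 with array weights, 9 with only the 2 groups and 1 without both mice. At 162 µg they were 1 with median centring, 0 without normalization, 8 with array weights or no fold threshold, 2 at 2-fold and 3 without both mice. With 1 mouse left out they ranged from 0 to 2, 0 to 3 and 3 to 8.

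Neutrophil marker calls (1, 0 and 2) were 0 at 18 µg with normexp, median centring, no normalization, Cy5 alone, the deposited table, no slide term, only the 2 groups, array weights, outlier spots kept or without both mice. At 54 µg they were 1 with Cy5 alone and 5 with only the 2 groups, and at 162 µg 1 with median centring and 0 without normalization. With 1 mouse left out they ranged from 0 to 1, 0 to 0 and 2 to 5.

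Values that changed sign were Cxcl15 at 18 µg (-0.044 with median centring, -0.21 without normalization) and at 54 µg (0.11 with Cy5 alone, -0.315 to 0.053 with 1 mouse left out, the latter without control replicate 1), Cxcl2 at 18 µg (-0.039) and Mif at 18 µg (-0.046) without normalization, Csf3r at 54 µg (0.043 without normalization, 0.0068 with no slide term), Csf3 at 18 µg (-0.016 with only the 2 groups, -0.0022 to 0.156 with 1 mouse left out, the former without control replicate 3) and Cxcr2 at 18 µg (-0.061 with only the 2 groups). The cause was not tested.

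Replicate numbers were not taken as pairs, since 20 of 31 same-numbered pairs, not every one, correlated above 0.1 in their deviations (median 0.17, lowest -0.17, against -0.06 and 40 of 150 pairs for different numbers). The median was 0.26 for mice of the same slide, and 12 of 22 mice correlated best with a mouse of their own number and 16 with one of their slide. With the replicate block in place of slide, member calls were 1, 1 and 4, with 3 between doses, pathway calls 2, 2 and 9, neutrophil marker calls 3 at 162 µg, and the value of Csf3r at 54 µg 0.0068. Signal near background limits Cxcl2, Cxcl3 and Csf3.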
